A study of Mus musculus with 2 samples.

Results

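The nuclear genes that encode the respiratory chain, ATP synthase and cytochrome c were described in single-nucleus RNA profiles of mouse hippocampus. Members were chosen by symbol: those starting with Ndufa, Ndufb, Ndufc, Ndufs, Ndufv, Uqcr, Cox4i, Cox5, Cox6, Cox7, Cox8 or Atp5, with Sdha, Sdhb, Sdhc, Sdhd and Cycs, leaving out the Ndufaf assembly factors and the pseudogene symbols. The rule used no measured value and found 86 of the 32285 genes listed: 38 for complex I, 4 for complex II, 8 for complex III, 18 for complex IV, 17 for complex V and Cycs. The study profiled nuclei from frozen hippocampus of mice heterozygous for a knockout of Capza2, which encodes an alpha subunit of the actin capping protein, and of wild-type mice, with no drug given to either, and asked how cell populations differ between them. There was 1 library per genotype. Age, sex, strain, the number of mice behind each library and the part of Capza2 that is deleted are not given in the sources used here. With 1 library per genotype no test of genotype was possible, so every difference is between these libraries, and every interval covers counting error only.

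The respiratory chain moves electrons from nutrients to oxygen across the inner mitochondrial membrane and uses the energy to pump protons. Complex I takes electrons from NADH and complex II takes them from succinate, complex III passes them to cytochrome c, complex IV hands them to oxygen, and complex V, the ATP synthase, lets protons flow back to make ATP. A small number of core subunits of complexes I, III, IV and V are encoded by mitochondrial DNA. The other subunits, and the whole of complex II, are encoded in the nucleus. Most of them are among the genes described here; Cyc1, which encodes a cytochrome of complex III, is not matched by the rule. Their messenger RNA is made in the nucleus and translated in the cytoplasm. Neurons rely heavily on this pathway for the ATP that ion pumping and synaptic transmission consume.

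Values are unique molecular identifiers (UMIs), which count captured RNA molecules once each. Barcodes with at least 500 genes and at most 5% of UMIs from mitochondrial DNA were kept, which left 7211 heterozygote and 6424 wild-type nuclei with 62384065 and 58653206 UMIs and a median of 6080 and 6893.5 UMIs per nucleus. The libraries shared 11 kept barcodes. Levels are in CPM, the UMIs of a gene scaled to the same total in each library or class, and differences are log2 ratios of heterozygote over wild-type CPM with exact 95% binomial intervals. Capza2 was at 66.7 CPM in the heterozygote and 85.5 CPM in the wild-type library, a log2 ratio of -0.36 (-0.42 to -0.30), and was lower in 7 of 7 cell classes. Classes are clusters named after marker genes. Those with at least 200 nuclei in each library, after likely doublets were removed, were dentate granule-like (2046 heterozygote and 1475 wild-type nuclei), CA1-like (785 and 915), CA3-like (394 and 458), inhibitory neuron-like (318 and 443), astrocyte-like (335 and 264), oligodendrocyte-like (1130 and 800) and microglia-like (327 and 238). Neuronal classes of the hippocampus and glia were therefore both present under the hippocampus label. A cluster led by hemoglobin genes held 230 heterozygote and 41 wild-type nuclei and was one of several that received no class. Counting likely doublets, 1388 heterozygote and 1376 wild-type nuclei had no class, and values over all nuclei include them.

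Over all kept nuclei, the members together were higher in the heterozygote library. They took 284340 UMIs there and 238286 in the wild-type library, or 4558 and 4063 CPM, a log2 ratio of 0.17 (0.16 to 0.17). Complex IV had the largest difference of the 5 complexes, at 1137 against 967 CPM and 0.23 (0.22 to 0.25). Complex I was at 1737 against 1558 CPM and 0.16 (0.14 to 0.17). Complex V was at 1141 against 1031 CPM and 0.15 (0.13 to 0.16), and complex III at 369 against 337 CPM and 0.13 (0.10 to 0.15). Complex II stood apart with 141.4 against 140.6 CPM and 0.01 (-0.03 to 0.05), and it turned to 1.22 against 1.28 UMIs per nucleus when UMIs were not scaled. By class, complex II was higher in CPM in oligodendrocyte-like (259 against 227), astrocyte-like (253 against 231) and inhibitory neuron-like nuclei (149 against 147). It was lower in CPM in dentate granule-like, CA1-like, CA3-like and microglia-like nuclei. Cycs, the mobile electron carrier between complexes III and IV, was at 32.6 against 28.7 CPM and 0.18 (0.09 to 0.28). Without scaling, all members together had 39.4 against 37.1 UMIs per nucleus.

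Of the 86 members, 79 had at least 200 UMIs over both libraries. Of these, 72 were higher in the heterozygote library, where 48.1% of all 14718 genes over the same floor were higher. The median log2 ratio was 0.15 for the members and -0.01 for all genes. The differences were small per gene: 2 members had a log2 ratio of at least 0.32, the size used here to call a gene clearly higher, where 5.12% of all genes did, and 0 members were clearly lower, at -0.32 or below, where 4.51% of all genes were. By complex, 35 of 37 members of complex I were higher, 1 of 4 of complex II, 7 of 8 of complex III, 12 of 12 of complex IV and 16 of 17 of complex V. Per nucleus and unscaled, 60 of the 79 were higher, where 29.9% of all genes were. The counts thus place complexes I, III, IV and V on the same side of the median gene, with complex II divided.

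**Figure D1:**
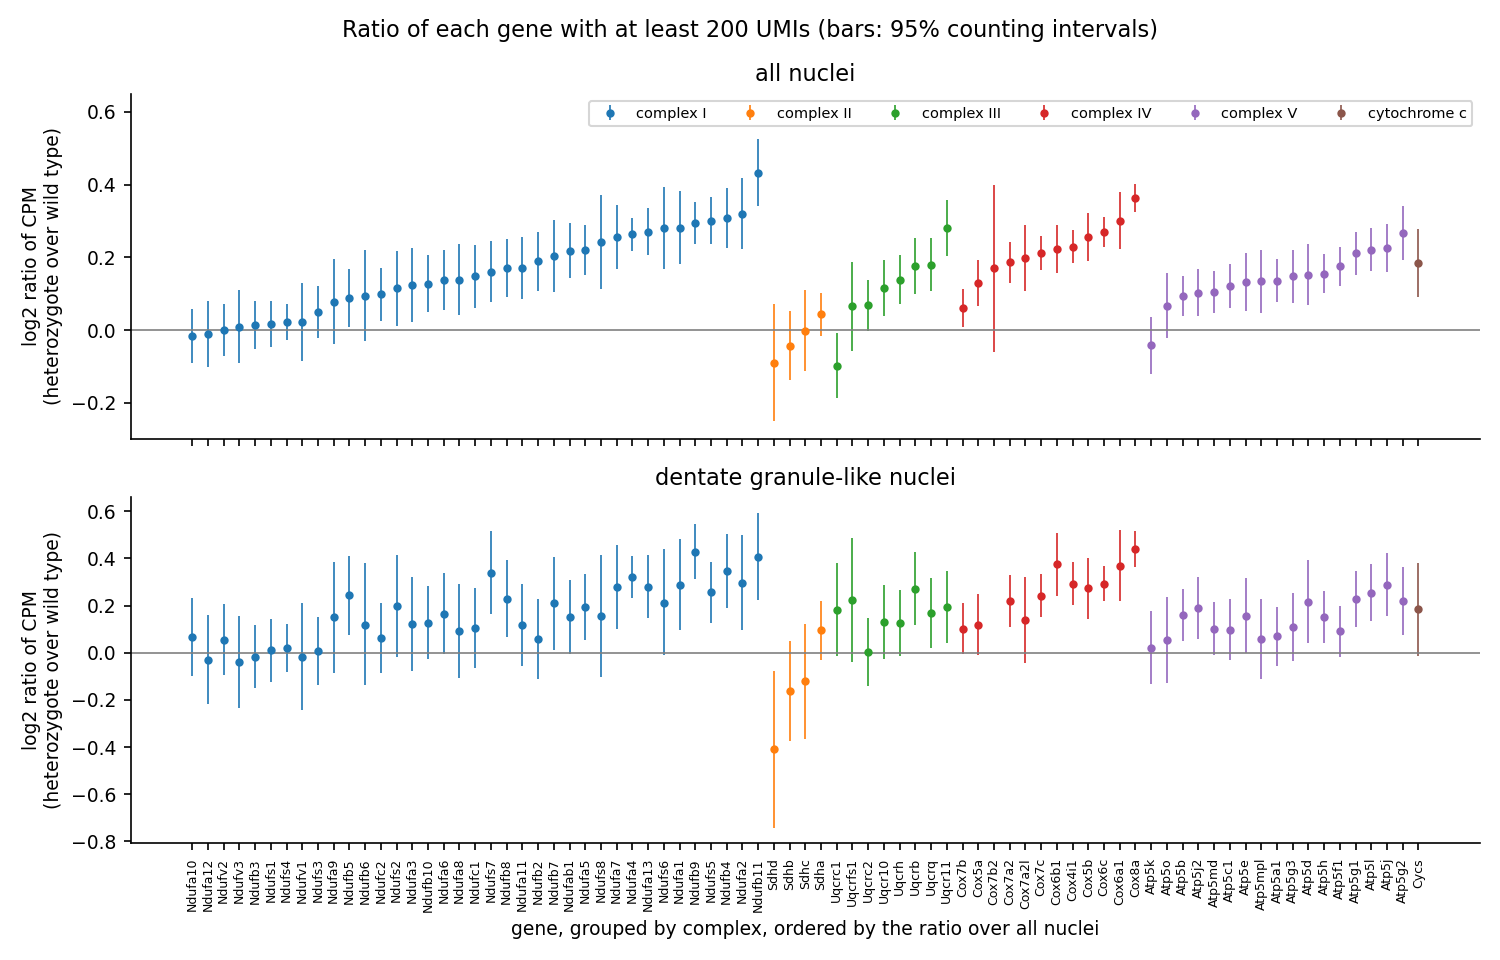
Log2 ratio of heterozygote over wild-type CPM for each member with at least 200 UMIs over both libraries, grouped by complex, in all nuclei (top) and dentate granule-like nuclei (bottom); points are genes, bars are 95% counting intervals and the grey line is 0. The 12 complex IV members lie above 0 in all nuclei, while the 4 complex II genes lie around 0, and Sdhd is the lowest in dentate granule-like nuclei, at -0.41.

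The member with the highest ratio was Ndufb11, an accessory subunit in the membrane arm of complex I, encoded on the X chromosome. It had 2331 heterozygote and 1624 wild-type UMIs, or 37.4 and 27.7 CPM, a log2 ratio of 0.43 (0.34 to 0.52). Cox8a, the ubiquitous form of a small membrane subunit of complex IV, followed with 12559 and 9177 UMIs, 201 and 156 CPM, and 0.36 (0.32 to 0.40). These were the 2 members past 0.32. Ndufb9, another membrane arm subunit, was at 88.4 and 72.0 CPM, with a ratio of 0.30 (0.24 to 0.35). Ndufs5, an accessory subunit of complex I, was at 72.2 and 58.7 CPM, and Cox6c, a nuclear subunit of complex IV, at 175 and 145 CPM. All 5 were also higher per nucleus.

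At the other end stood Uqcrc1, a core subunit of complex III, with 2036 and 2049 UMIs, 32.6 and 34.9 CPM, and a log2 ratio of -0.10 (-0.19 to -0.01). Atp5k, the small e subunit in the membrane part of ATP synthase, was at 43.4 and 44.6 CPM. Sdhb, the iron-sulfur subunit of complex II, was at 29.16 and 30.02 CPM. The other complex II genes were close to it: the flavoprotein subunit Sdha was at 80.3 and 77.9 CPM, and the membrane anchors Sdhc and Sdhd were at 21.9 and 21.9 CPM and at 10.1 and 10.7 CPM. Ndufa10 and Ndufs4, subunits of complex I, had log2 ratios of -0.02 and 0.02.

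Grouped by role over all nuclei, the core subunits of complexes I and III differed less in CPM than their accessory or small subunits. The 7 core subunits of complex I had a summed log2 CPM ratio of 0.06 (0.03 to 0.09), but 2.46 heterozygote and 2.49 wild-type UMIs per nucleus, and its accessory subunits had 0.18 (0.16 to 0.19). In complex III the core and Rieske subunits Uqcrc1, Uqcrc2 and Uqcrfs1 had 0.01 (-0.04 to 0.07), but 0.921 and 0.962 UMIs per nucleus, and the small subunits 0.18 (0.14 to 0.21). In ATP synthase, the c ring genes had 0.21 (0.17 to 0.25), the peripheral stalk 0.17 (0.14 to 0.20), the catalytic head and central stalk 0.12 (0.09 to 0.15) and the small membrane subunits 0.12 (0.09 to 0.15). The core and accessory groups of complex I kept that order in dentate granule-like nuclei, at 0.09 and 0.19. In oligodendrocyte-like and astrocyte-like nuclei the core was at -0.06 and -0.07, below complex I as a whole. The core lay above the whole in microglia-like nuclei, at 0.28 (0.03 to 0.54). It did so too in CA3-like and inhibitory neuron-like nuclei, at -0.07 and -0.03, and in CA1-like nuclei it was close to the whole. Outside dentate granule-like and microglia-like nuclei the core intervals reached 0. Ndufa4, named as a complex I subunit, is now regarded as part of complex IV, and moving it there gave 0.15 for complex I and 0.24 for complex IV.

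The promoters of these genes are known for sites of NRF1 and of the ETS factor GABP, which switch on many nuclear respiratory genes together. The 250 bases before each start were taken from RefSeq on GRCm38.p6, where 69 of the 86 members matched. The letters CGCANGCG, the core of the NRF1 site, searched on both strands, occurred in 17 of these windows (24.6%, against 6.94% of 27025 promoters of the same length), and in 12 (17.4% against 3.86%) when a G before and a C after were also required. The ETS letters CCGGAAG occurred in 11 (15.9% against 7.05%), and the YY1 letters AANATGGCG in 1, that of Ndufb11 (1.45% against 1.12%). A window may hold more than 1 of the 3, and 25 windows held any (36.2% against 13.8%). NRF1 letters were in 8 of 33 windows of complex I, 2 of 3 of complex II, 0 of 5 of complex III, 1 of 13 of complex IV and 5 of 14 of complex V, and in that of Cycs. Upstream stretches without exon bases are shown, for Cox8a and Ndufs5 as members near the top of the order, Uqcrc1 as the lowest, and Cox6a1 as the complex IV member with NRF1 letters, with NRF1 letters in capitals. They lie at chr19:7217617-7217866 (minus strand) for Cox8a, chr4:123718203-123718436 (minus) for Ndufs5, chr9:108936398-108936632 (plus) for Uqcrc1 and chr5:115348982-115349129 (minus) for Cox6a1.
Cox8a: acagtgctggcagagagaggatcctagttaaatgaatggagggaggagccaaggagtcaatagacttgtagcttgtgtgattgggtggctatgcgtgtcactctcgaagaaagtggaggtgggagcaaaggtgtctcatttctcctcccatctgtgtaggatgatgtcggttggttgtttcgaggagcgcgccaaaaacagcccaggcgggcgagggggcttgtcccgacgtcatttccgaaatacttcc
Ndufs5: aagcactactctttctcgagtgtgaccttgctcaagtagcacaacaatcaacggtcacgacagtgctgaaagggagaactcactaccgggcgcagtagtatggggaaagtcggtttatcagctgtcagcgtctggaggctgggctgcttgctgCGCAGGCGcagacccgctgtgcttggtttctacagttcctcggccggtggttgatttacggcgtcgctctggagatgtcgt
Uqcrc1: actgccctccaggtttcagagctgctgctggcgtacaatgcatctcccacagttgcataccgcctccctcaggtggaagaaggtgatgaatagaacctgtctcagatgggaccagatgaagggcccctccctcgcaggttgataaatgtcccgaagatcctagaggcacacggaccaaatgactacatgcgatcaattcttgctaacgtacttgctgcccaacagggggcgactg
Cox6a1: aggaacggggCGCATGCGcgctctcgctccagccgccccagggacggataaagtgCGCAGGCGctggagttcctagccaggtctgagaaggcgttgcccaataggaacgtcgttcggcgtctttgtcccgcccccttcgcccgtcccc
Cox8a at the high end and Uqcrc1 at the low end both lack the 3 motifs in this window, and Ndufs5 holds the NRF1 letters at -97 from its start. A match is a run of letters and was not measured as bound.

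By class, the direction on the CPM scale split the nuclei. In dentate granule-like nuclei the members were at 5425 heterozygote and 4761 wild-type CPM, a log2 ratio of 0.19 (0.17 to 0.20). In oligodendrocyte-like nuclei they were at 12132 and 10858 CPM, with 0.16 (0.13 to 0.19), and in microglia-like nuclei at 13794 and 12546 CPM, with 0.14 (0.08 to 0.19). Astrocyte-like nuclei had 9422 and 9011 CPM and 0.06 (0.02 to 0.11). These 4 classes were also higher per nucleus. CA1-like nuclei had 3304 and 3412 CPM, or -0.05 (-0.07 to -0.02), but 42.1 and 38.3 UMIs per nucleus. CA3-like nuclei had 2573 and 2838 CPM, or -0.14 (-0.17 to -0.11), but 52.2 and 47.4 UMIs per nucleus. Inhibitory neuron-like nuclei had 3797 and 3981 CPM, or -0.07 (-0.10 to -0.04), but 54.5 and 48.6 UMIs per nucleus.

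The reversal in these 3 neuronal classes went with total UMIs. Median UMIs per nucleus were 11017 heterozygote and 9808 wild type in CA1-like, 17464 and 14012 in CA3-like and 10539.5 and 9764 in inhibitory neuron-like nuclei. Unscaled, the median gene itself was higher in the heterozygote there, at log2 0.14, 0.21 and 0.20 per nucleus, and the median member was at 0.13, 0.12 and 0.15. Relative to that shift the members of the CA3-like and inhibitory neuron-like classes were lower, and those of CA1-like nuclei near it. Averaged over bins of total UMIs, the summed log2 CPM ratio was 0.18 in dentate granule-like, 0.04 in CA1-like, -0.05 in CA3-like and 0.05 in inhibitory neuron-like nuclei. The bins match depth only roughly. In the open top bin, from 16000 UMIs, CA1-like means were 24277 heterozygote and 21907 wild-type UMIs. With rising depth the ratio went 0.08, 0.05 and -0.04 in CA1-like nuclei. In inhibitory neuron-like nuclei it went 0.06, 0.11 and -0.08. The part of depth in these differences was not tested otherwise.

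**Figure D2:**
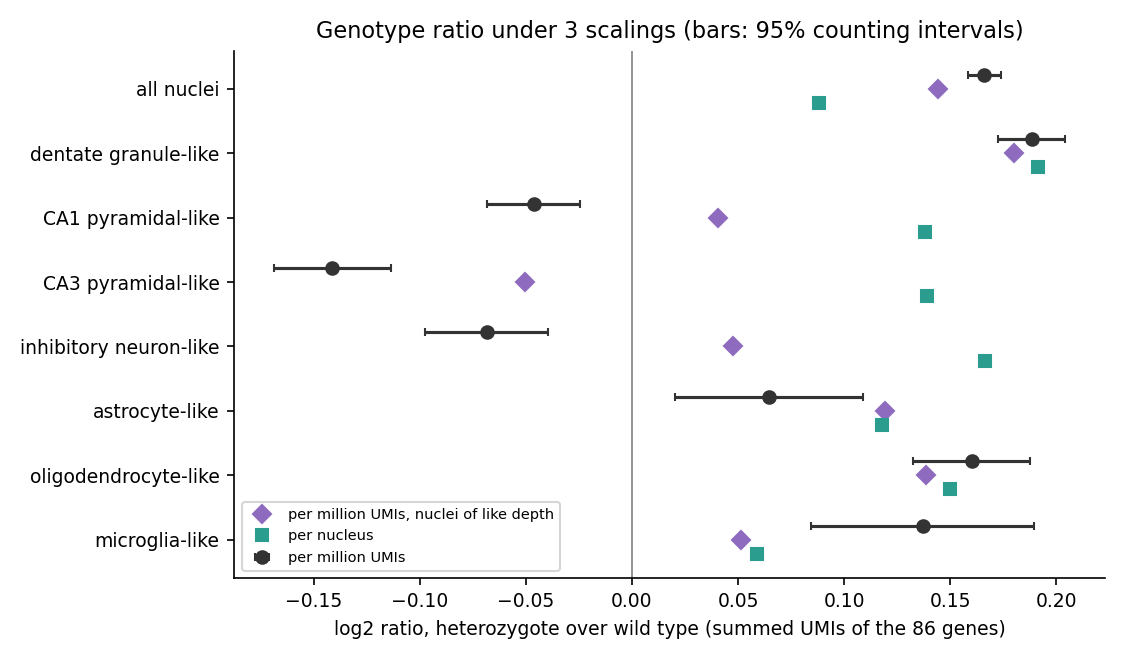
Log2 ratio of heterozygote over wild type for the summed UMIs of the 86 members, in all nuclei and each class. Circles are CPM ratios with 95% counting intervals, diamonds are CPM ratios averaged over bins of total UMIs, and squares are UMIs per nucleus. Dentate granule-like and glial classes lie above 0 on each scale, while CA1-like, CA3-like and inhibitory neuron-like nuclei lie below 0 in CPM and above 0 per nucleus.

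Dentate granule-like nuclei, the granule cells that receive input from the entorhinal cortex, held the broadest difference. Of 78 members over the floor, 71 were higher in CPM and per nucleus alike, where 49.2% of all genes were higher in CPM. Clearly higher were 7 (4.11% of all genes), and 1 was clearly lower (3.68% of all genes). Among genes under 10 kb, 51 of 54 members were higher in CPM, against 64.8% of all genes of that size. Their median log2 ratios were 0.19 and 0.08. Cox8a had 4070 and 2160 UMIs, 266.2 and 196.3 CPM, and a log2 ratio of 0.44 (0.36 to 0.51). Ndufb9 was at 113 and 84.1 CPM, or 0.43 (0.31 to 0.54), and Cox6b1, a subunit of complex IV on the cytochrome c side, at 83.8 and 64.6 CPM. The member past the fold in the other direction was Sdhd, at 10.3 and 13.6 CPM and -0.41 (-0.74 to -0.08). Complex IV again had the largest ratio among complexes, 0.28 (0.25 to 0.31), and complex II was at -0.03 (-0.12 to 0.06). The class held clusters 0 and 3, with 0.13 and 0.08 within them, and cluster 0 made up 74.8% of the class in the heterozygote and 64.0% in the wild type.

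Oligodendrocyte-like nuclei, the myelinating glia, had 60 of 72 members higher on both scales, where 51.8% of all genes were higher in CPM. Short genes shared this: under 10 kb, 43 of 51 members and 81.4% of all genes were higher. Clearly higher were 12, where 7.63% of all genes were, and 0 were clearly lower, where 4.86% of all genes were. Atp5d, the delta subunit of the ATP synthase central stalk, had 287 and 134 UMIs, 129 and 84.4 CPM, and 0.61 (0.31 to 0.92). Ndufb11 was at 135 and 92.6 CPM, or 0.54 (0.25 to 0.84), and Atp5g1, which encodes the c subunit of the rotating ring, at 234 and 174 CPM. Complex III had the smallest ratio there, 0.05 (-0.04 to 0.14). At the low end, Ndufs1, the largest core subunit of complex I, was at 99.3 and 117 CPM.

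Microglia-like nuclei, the resident immune cells, had 12 of 17 members higher in CPM and 9 of 17 higher per nucleus, where 51.3% of all genes were higher in CPM and 36.9% per nucleus. Clearly lower were 0 (8.14% of all genes) and clearly higher 2 (8.38%): Atp5l, the g subunit of ATP synthase, at 293 and 184 CPM and 0.67 (0.26 to 1.09), and Ndufs5, at 266 and 174 CPM and 0.61 (0.18 to 1.05). Atp5l rested on 151 and 73 UMIs. The direction of the class rests on how doublets were removed: with the threshold that the doublet caller set by itself, which marked 0.0139% of heterozygote and 8.05% of wild-type nuclei, the members' log2 CPM ratio was -0.21. Astrocyte-like nuclei had 23 of 34 members higher (46.6% of all genes). The complex III hinge protein Uqcrh, at 154 and 123 CPM, was past the size for clearly higher, but its interval reached 0. It was the 1 member past that size (8.47% of all genes), and 0 were clearly lower (6.53%). Cox4i1, the main isoform of a regulatory complex IV subunit, was at 315 and 262 CPM there, and Cox8a at 390 and 339 CPM.

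CA1-like nuclei had 22 of 77 members higher in CPM, where 38% of all genes were, and 65 higher per nucleus, where 80.4% of all genes were. In CPM, 0 were clearly higher (2.22% of all genes) and 2 were clearly lower (5.88% of all genes), Ndufa2, an accessory subunit of complex I, at 17.0 and 22.5 CPM, and Uqcrfs1, the Rieske subunit, at 12.9 and 16.2 CPM. Uqcrfs1 was past the size for clearly lower, but its interval reached 0. CA3-like nuclei had 14 of 72 higher in CPM (34.1% of all genes) and 54 per nucleus (87.3%), and in CPM 0 were clearly higher (2.14% of all genes) and 15 clearly lower (9.55%), against 12 (25.4%) and 1 (1.29%) per nucleus. Inhibitory neuron-like nuclei had 27 of 72 higher in CPM (41.5% of all genes) and 58 per nucleus (87.9%), with 0 clearly higher (3.03% of all genes) and 4 clearly lower (5.26%) in CPM, against 12 (21.5%) and 0 (0.624%) per nucleus. The 4 lower in CPM were Atp5k, Atp5md, Ndufc2 and Uqcr10. For 43 of 77 members in CA1-like, 40 of 72 in CA3-like and 31 of 72 in inhibitory neuron-like nuclei, the side depended on the scaling. In dentate granule-like and oligodendrocyte-like nuclei it depended on it for 0.

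Members lower in the heterozygote on both scales numbered 12 of 77 in CA1-like, 18 of 72 in CA3-like and 14 of 72 in inhibitory neuron-like nuclei, and those higher on both 22, 14 and 27. Cycs in CA3-like nuclei had 104 heterozygote and 163 wild-type UMIs, or 13.01 and 21.3 CPM and 0.264 and 0.356 UMIs per nucleus, a log2 CPM ratio of -0.71 (-1.08 to -0.35). It was the lowest member there, and none of the other 6 classes compared had it lower on both scales. Atp5k was lower on both scales in 6 of 7 classes, counted without the floor, which it did not reach in microglia-like nuclei. In CPM it was at 20.4 and 29.0 in CA3-like, 29.8 and 43.3 in inhibitory neuron-like and 30.3 and 37.5 in CA1-like nuclei, and in dentate granule-like nuclei it had 0.399 and 0.393 UMIs per nucleus. Ndufb8, a membrane arm subunit of complex I, was at 20.6 and 28.4 CPM in CA3-like nuclei. Atp5md, a small ATP synthase subunit, was at 53.0 and 74.0 CPM in inhibitory neuron-like nuclei. The highest ratios in CA1-like nuclei were Cox5b, at 50.4 and 44.3 CPM, and Ndufab1, the mitochondrial acyl carrier protein, at 41.5 and 36.1 CPM, and both intervals reached 0. In CA3-like nuclei cluster 10 held 55.6% of the heterozygote and cluster 9 held 55.2% of the wild-type nuclei, and the summed log2 CPM ratios in clusters 9 and 10 were -0.11 and -0.18.

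Classes differed far more than the libraries did in the members' share of RNA. Microglia-like nuclei had the highest CPM in both libraries and CA3-like nuclei the lowest among the 7 classes, with a ratio of 5.36 in the heterozygote and 4.42 in the wild type. Unscaled, the order turned around: CA3-like and inhibitory neuron-like nuclei held the most member UMIs per nucleus and microglia-like the fewest, and the highest class was 2.50 times the lowest in the heterozygote and 2.33 times in the wild type. Total UMIs per nucleus spanned 12.9-fold and 10.0-fold over the same classes. Complex II spanned 4.84-fold and 4.32-fold per nucleus, more than the members together. Ndufb11 had the widest CPM span of complex I with both libraries summed, 140 CPM in microglia-like against 15.5 in CA3-like nuclei, and Sdha, at 2.37-fold, had a narrow one.

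**Figure D3:**
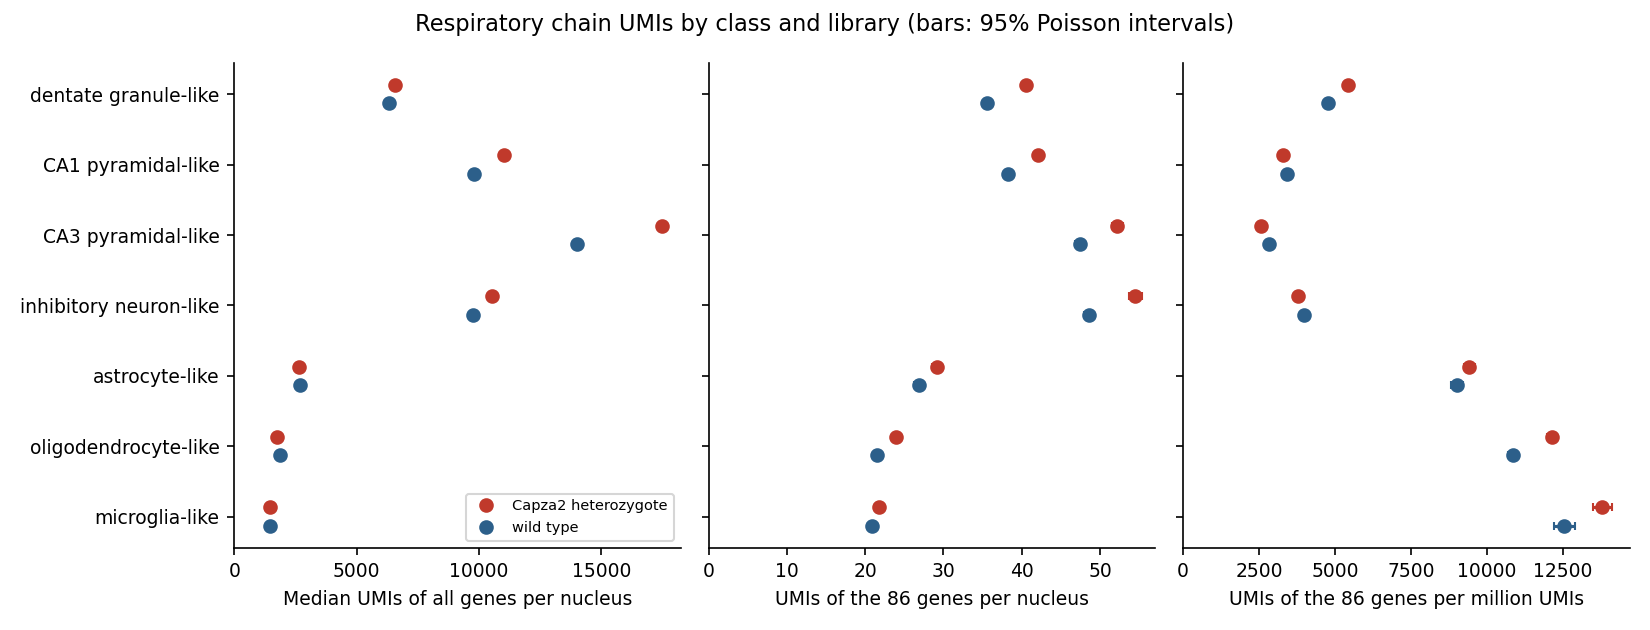
Median UMIs of all genes per nucleus (left), member UMIs per nucleus (middle) and member CPM (right) for each class, with the heterozygote in red and the wild type in blue; bars are 95% Poisson intervals in the middle and right panels. Microglia-like and oligodendrocyte-like nuclei have the fewest member UMIs per nucleus and the highest CPM.

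Transcripts that are not made in a class also appeared at a level that varied little between classes. Ttr, the transthyretin gene of choroid plexus epithelium, had 1.32 to 1.47 UMIs per nucleus over the 7 classes in the heterozygote and 0.336 to 0.447 in the wild type, and its range over classes was 1.12-fold and 1.33-fold. Cytosolic ribosomal protein genes spanned 1.78-fold and 1.70-fold per nucleus, and Malat1, a nuclear noncoding RNA, 28.5-fold and 20.0-fold. The members' 2.50-fold and 2.33-fold lay between these. The hemoglobin-led cluster held 25.2 and 23.5 member UMIs per nucleus, close to the oligodendrocyte-like 23.9 and 21.5. The part of free RNA in the member values was not tested, since barcodes under 500 UMIs were not analysed here. Within nuclei of 4000 to 8000 UMIs the members were at 36.8 UMIs per nucleus in dentate granule-like, 34.0 in CA1-like, 37.2 in inhibitory neuron-like, 35.8 in astrocyte-like and 32.3 in oligodendrocyte-like nuclei of the heterozygote. The wild-type values were 32.1, 32.4, 34.9, 36.0 and 29.7.

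**Figure D4:**
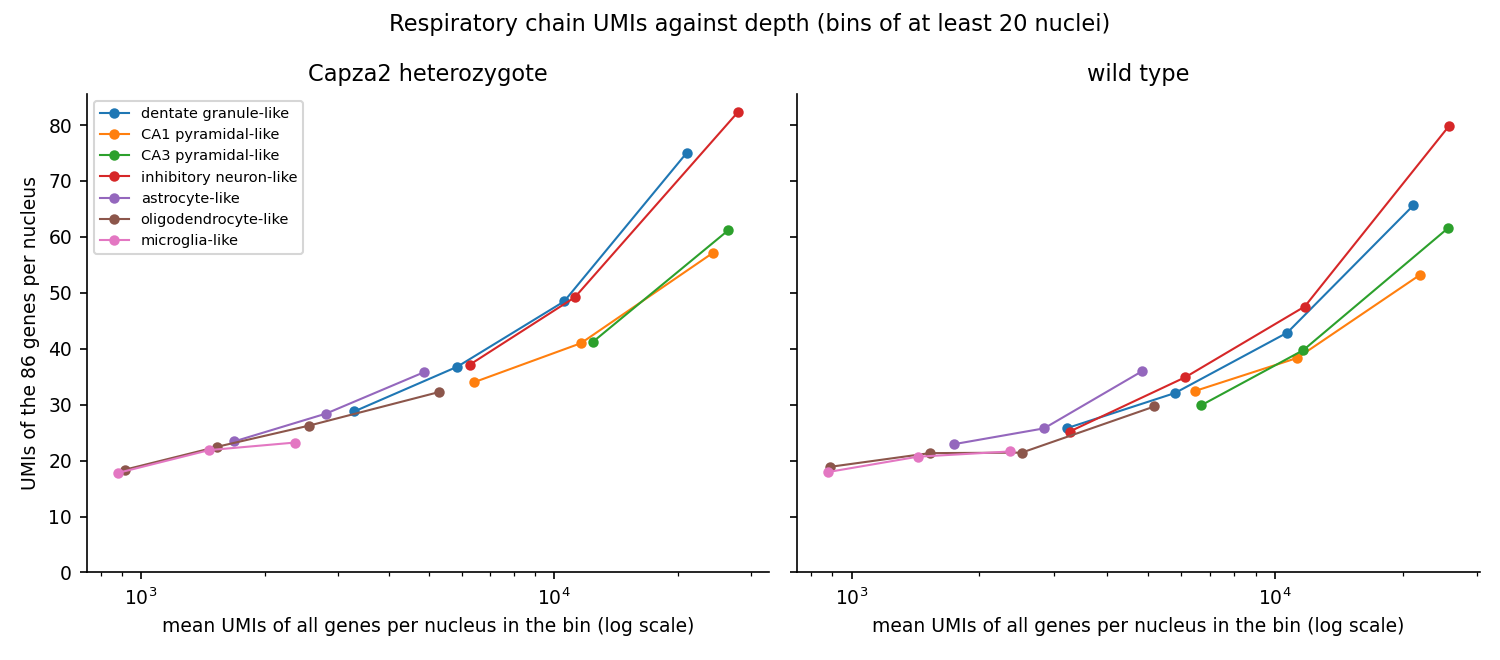
Member UMIs per nucleus against mean total UMIs (log scale) in bins of at least 20 nuclei, for each class in the heterozygote (left) and wild-type library (right). Member UMIs rise with total UMIs in each class of the heterozygote, and at the highest totals inhibitory neuron-like and dentate granule-like nuclei lie above CA1-like and CA3-like nuclei in both libraries.

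The mix of complexes within the member UMIs does not depend on the scaling. Complex IV made up 24.9% of member UMIs in the heterozygote and 23.8% in the wild type over all nuclei, and 27.1% and 25.3% in dentate granule-like nuclei. Complex I made up 38.1% and 38.4%, and complex II 3.10% and 3.46%. Complex V made up 25.0% and 25.4%, and in the heterozygote its interval overlapped that of complex IV.

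Isoforms known from other tissues were rare. Cox4i1 made up 99.8% of the Cox4i pair in both libraries, Cox6a1 97.7% heterozygote and 97.2% wild type of its pair, Cox8a 99.9% and 100% of its family and Ndufa4 99.8% and 99.9% of its pair with Ndufa4l2. The muscle-type Cox7a1 had 42 and 26 UMIs and Cox8b 11 and 3, the testis-type Cox8c 0 and 0, and Cox4i2 17 and 12. A count of 0 allows up to 3 UMIs in a library. Cox6a2, the muscle form of Cox6a, was 9.0% and 7.9% of its pair in inhibitory neuron-like nuclei, on 19 and 19 UMIs. Cox6b2, a testis form, was 12.6% and 13.3% of its pair in astrocyte-like nuclei, on 20 and 18 UMIs. The 3 genes for the same mature c subunit were all present, with Atp5g1 at 43.1% and 43.0%, Atp5g2 at 28.4% and 27.2% and Atp5g3 at 28.6% and 29.8%. Processed pseudogenes resemble many of these genes, so their counts are uncertain to that extent.

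Cox7b2, a form known from testis, held 5.2% and 4.9% of its pair and was nearly absent from oligodendrocyte-like and microglia-like nuclei. It had 347 and 290 UMIs in all: 86 and 54 in dentate granule-like, 44 and 44 in CA1-like, 29 and 31 in CA3-like, 41 and 47 in inhibitory neuron-like, 13 and 4 in astrocyte-like, 1 and 0 in oligodendrocyte-like and 0 and 0 in microglia-like nuclei. The gene spans chr5:71442824-71548205 on the minus strand of mm10, next to GABA-A receptor genes. Gabra4, whose body lies 21.5 kb away upstream on the same strand, had 2.04 and 1.92 UMIs per nucleus in dentate granule-like nuclei and 0.0549 and 0.0438 in oligodendrocyte-like nuclei. Both genes were scarce in oligodendrocyte-like nuclei, and reads that pass between the genes were not separated.

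Members are short genes. Of the 79 over the floor, 54 span under 10 kb and 23 span 10 to 50 kb, and their median span was 7.46 kb against 26.5 kb over all genes. Genes under 10 kb had a median log2 ratio of 0.06 and were higher in 61.9% of cases, against 42.6% of those over 200 kb. Among members, 52 of 54 under 10 kb were higher, with a median of 0.17, and 18 of 23 between 10 and 50 kb, with a median of 0.08. Over all nuclei short genes as a whole were thus higher in CPM, and members of that size more often so. This did not hold in every class. Under 10 kb, 16 of 27 members were higher in astrocyte-like nuclei against 69.5% of all genes of that size, and 11 of 15 in microglia-like nuclei against 75.2%. In CA1-like, CA3-like and inhibitory neuron-like nuclei the median short gene was lower. Members under 10 kb were higher there in 14 of 53 (42.2% of all genes), 7 of 48 (31.9%) and 18 of 48 cases (40.8%). The medians of members and of all genes under 10 kb were 0.06 and 0.11 in astrocyte-like, 0.16 and 0.18 in oligodendrocyte-like and 0.11 and 0.17 in microglia-like nuclei. Across the 79 members, span and log2 ratio had a Spearman rho of -0.41. In the wild type, member UMIs per nucleus in oligodendrocyte-like and microglia-like nuclei relative to CA3-like nuclei were lower for longer genes (rho -0.66, n 79), from 0.76 for Ndufb11 and 0.75 for Uqcr11 to 0.15 for Ndufs4 and 0.13 for Ndufa10. These points share libraries and are genes, so no p is given.

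**Figure D5:**
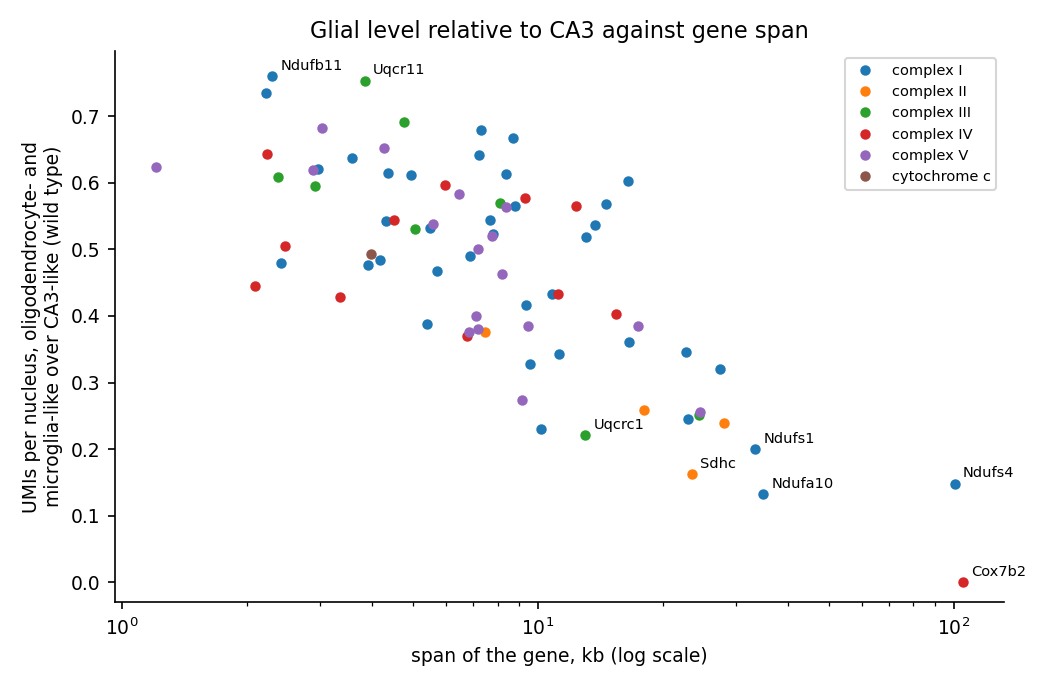
Wild-type UMIs per nucleus in oligodendrocyte-like and microglia-like nuclei divided by those in CA3-like nuclei, against gene span in kb (log scale); each point is a member with at least 200 UMIs, coloured by complex. The ratio goes from 0.76 for Ndufb11, a short gene, to 0.13 for Ndufa10 and 0 for Cox7b2, which are long.

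Related gene lists were read the same way, on the CPM scale. Of the assembly factors that build the complexes, 26 of 44 were higher, with a summed log2 CPM ratio of 0.01. The tricarboxylic acid cycle had 6 of 16 higher and -0.01. Glycolysis had 12 of 16 higher and 0.06, with Gapdh at 0.20 and Eno1 at 0.23, and with Pfkp at -0.21 and Pfkm at -0.12 at the low end. Unscaled, the assembly factors were at 11.3 heterozygote and 11.9 wild-type UMIs per nucleus, the tricarboxylic acid cycle at 5.74 and 6.08 and glycolysis at 7.91 and 8.02, so assembly factors and glycolysis changed side with the scaling. Regulators of respiratory genes had 5 of 14 higher and -0.12, and among them Tfam, which packages mitochondrial DNA, was at 0.20, and Pprc1 and Esrra were at -0.30 and -0.25. The 13 mitochondrially encoded genes, the partner subunits of complexes I, III, IV and V, lay the other way: mt-Nd6 alone was higher (0.10, -0.15 to 0.36), 12 were clearly lower, and their sum was at 583 and 918 CPM, or -0.66. Their UMIs were 5.04 and 8.39 per nucleus. The filter on mitochondrial UMIs bounds these values, and the filters together left out 7.56% of heterozygote and 1.35% of wild-type barcodes. The part of RNA from outside the nuclei in this difference was not tested. Cytosolic ribosomal proteins, also short and abundant, had 81 of 83 higher and 0.24 (0.24 to 0.25), above the 0.17 of the members. Choroid plexus genes had 3 of 3 higher and 1.09, with Ttr at 1.95, Enpp2 at 0.45 and Kl at 0.20. In oligodendrocyte-like nuclei this list had 5.4 and 4.4 UMIs per nucleus, of which Ttr made up 1.37 and 0.36. Hemoglobin genes, foreign to most of these nuclei, had 4 of 4 higher and 0.92 over all nuclei, but were at -1.10 in astrocyte-like nuclei. The part of RNA from other cells in the member differences was not tested, and without the hemoglobin-led cluster the members were at 0.15.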

How the data were processed

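Nuclear RNA of frozen hippocampus was profiled with 10x Genomics 3′ chemistry in 1 Capza2 heterozygote and 1 wild-type library. Each deposited matrix lists unscaled UMI counts by gene and barcode. They come from Cell Ranger 7.1.0, per the file headers, with mm10 as the genome, per the submitters' processing notes. Whether intron reads entered these counts is not stated in the sources read.

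Barcodes with at least 500 genes and at most 5% mitochondrial UMIs were kept. For classes, scanpy 1.11.5 (Python 3.11.15) removed the barcodes with the highest Scrublet scores, 0.8% per 1000 barcodes, and grouped the rest by Leiden clustering (leidenalg 0.10.2, resolution 1) on 2000 variable genes and 30 principal components, without the members. A class was named from at least 3 markers. CPM carry exact Poisson intervals and ratios exact conditional binomial intervals (scipy 1.17.1) at 95%. On counts simulated with counting error alone for 14718 genes, 95.4% of the intervals held the true ratio. The intervals assume that same error, so this checks the calculation only. It does not cover spread between nuclei, mice or libraries. Members and lists were chosen with earlier results of these data known. Named members are the 5 highest and 5 lowest by interval bound over all nuclei, 3 of each per class, the widest across classes and the paralogues; others were chosen after their values were seen. Per nucleus values, averaging over bins of total UMIs weighted by nuclei (depth-matched below) and leaving out the hemoglobin-led cluster were chosen after seeing the data.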

Additional observations from a re-analysis of the deposited data

How the results depend on the processing

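All values are log2 ratios of summed member UMIs unless named as counts, with the reported value first. Where no construction shows the cause, the cause was not tested. No paired analysis was possible because each genotype has 1 library and the labels share only 1 replicate number; leaving out a replicate would leave no comparison.

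Over all nuclei, 0.17 became 0.35 with every nucleus weighted alike, 0.23 thinned to 1000 UMIs, 0.14 (0.1396) with at least 1000 genes, 0.16 without the member with the most UMIs, 0.18 without doublets, 0.13 with an equal class mix, 0.15 without the hemoglobin-led cluster, 0.0882 per nucleus and 0.14 (0.1442) depth-matched. In dentate granule-like nuclei 0.19 became 0.13 (0.1317) thinned and 0.13 (0.1299) in the largest cluster, and complex III became -0.0024 thinned.

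In CA1-like nuclei -0.05 became -8.77e-05 centred on the median gene, -0.01 (-0.0097) in the largest cluster, 0.14 (0.1381) per nucleus and 0.04 (0.0407) depth-matched. Complex I became 0.0054, 0.1436 and 0.0409 when centred, per nucleus and depth-matched, complex II 0.0611 per nucleus, and complex IV 0.0209 in the largest cluster, 0.1365 per nucleus and 0.0521 depth-matched. In CA3-like nuclei -0.14 became -0.0731 centred, -0.18 weighted alike, -0.11 with doublets kept, -0.0952 with the automatic doublet threshold, 0.1389 per nucleus and -0.0506 depth-matched. Its complexes became 0.1691, 0.1095, 0.1557, 0.1166 and 0.1245 per nucleus for I to V, and complex III 0.0521 thinned. In inhibitory neuron-like nuclei -0.07 became -0.0349 centred, -0.0176 weighted alike, -0.12 with the automatic threshold, 0.1664 per nucleus and 0.0478 depth-matched. Complexes I and IV became 0.1664 and 0.1185 per nucleus and 0.0369 and 0.021 depth-matched.

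In astrocyte-like nuclei 0.06 became 0.126 weighted alike, 0.159 thinned, 0.1303 with doublets kept, 0.118 per nucleus and 0.119 depth-matched. In oligodendrocyte-like nuclei 0.16 became 0.21 with at least 1000 genes. In microglia-like nuclei 0.14 became 0.0782 weighted alike, 0.20 with at least 1000 genes, 0.0589 per nucleus, 0.0513 depth-matched and -0.21 with the automatic threshold, where complexes I and IV were -0.1554 and -0.2339.

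Counts of members higher moved from 22 to 34 centred and 65 per nucleus in CA1-like, from 14 to 24 and 54 in CA3-like, and from 27 to 58 per nucleus in inhibitory neuron-like nuclei. With a floor of 50 UMIs, which admits more members, they moved from 23 to 48 in astrocyte-like and from 12 to 50 in microglia-like nuclei, the latter also to 20 with doublets kept. Thinning left out 294 heterozygote and 106 wild-type nuclei.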
